A study of Mus musculus with 10 samples.

Results

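Monocytes are blood cells that enter injured tissue within hours, carry pattern and IgG receptors, and can mature there into macrophages. Mature macrophages clear dead cells and debris through scavenger receptors, make the complement protein C1q, and depend on the growth factor receptor Csf1r. In a healing wound or around a foreign material, incoming monocytes and macrophages arrive after or together with neutrophils and stay for days to weeks. The genes described here are 42 genes of mononuclear phagocytes, chosen by symbol. Of them, 39 were measured among the 18193 genes of the array, namely 7 of the 9 recruited monocyte genes, all 13 resident or mature macrophage genes and 19 of the 20 genes that monocytes and macrophages share. Clec4a1 and Clec12a were not matched to a probe set, and the probe set of Lilrb4a is listed with a second gene, so these 3 genes have no value here.

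Gene expression was measured on 10 arrays, with 1 array per condition. Of these, 8 arrays were of subcutaneous islet grafts taken 1, 3, 7 or 10 days after transplantation. PSI-F grafts were plasma-based scaffolds with rat islets and mouse skin fibroblasts, and PSI grafts were the same scaffolds with islets but without fibroblasts. The other 2 arrays were of subcutaneous biopsies of non-transplanted mice, a Diabetic mouse given streptozotocin and a healthy Control mouse. The recipients were male Swiss nu/nu mice, 6 weeks old, which lack a thymus and hence most T cells but keep monocytes, macrophages, neutrophils and NK cells. All graft recipients were made diabetic with streptozotocin, so the Control mouse is the only animal without it. The islets and the plasma came from Wistar rats, and the fibroblasts had been grown in culture from nu/nu mouse skin. For each scaffold and day 2 mice were killed, and RNA of the best quality was hybridised; the sources used here do not say if an array is a single animal or a pool. A rat transcript, including one from a macrophage carried over with the islets, is seen only where it binds mouse probes.

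Levels are the deposited log2 intensities, and a difference of 1 is a 2-fold change. The level of one probe set cannot be set against that of another, so genes are compared by their differences between arrays. Array medians lay between 2.82 and 2.94. Differences between the ends of the Gapdh transcript ranged from -0.01 to 0.29 and those between the ends of the actin transcript from 0.33 to 0.76, lowest on the Diabetic array. Of 27 spiked bacterial control probe sets, 12 were brighter on all 4 arrays of days 7 and 10 than on any other array, so a difference in labelling and the day cannot be told apart for changes from early to late grafts. In tissue RNA, more cells of a type and more RNA per cell cannot be told apart either. The monocyte and macrophage genes Csf1r, Adgre1, Cd68, Lyz2 and Tyrobp were higher on each of the 8 graft arrays than on either biopsy array, as were 8.15% of all genes. Other macrophage genes were not, as Cd163, Mertk, C1qb, Marco and Gpnmb overlapped the biopsies. A list of 10 further macrophage markers had a median difference of 0.36 between grafts and biopsies. The median was 0.10 for 8 dendritic and Langerhans cell markers, of which at most 4 exceeded the array median on any array. Among these, Cd207 of Langerhans cells had 3.83 to 5.30 in grafts, against 3.74 in the Diabetic and 5.93 in the Control biopsy. Neutrophil markers were also present, with a median over 15 genes of 3.21 to 5.59 in grafts and 2.63 to 2.97 in biopsies. That median was highest on the PSI-F day 3 array, which was also the array with the highest value of 19 of the 39 members. Hair follicle markers also varied between arrays. The median of 10 hair follicle keratin markers was 3.89, 2.70, 7.19 and 9.48 in PSI-F grafts and 4.39, 8.2, 4.55 and 9.24 in PSI grafts of days 1, 3, 7 and 10, against 8.74 in the Diabetic and 9.64 in the Control biopsy. The part of neutrophils in the levels of genes that both cell types express, and that of hair follicles in the members' levels, was not tested.

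Grafts held more of most monocyte and macrophage transcripts than non-transplanted tissue. In the comparison of the 8 grafts with the 2 biopsies, 25 of 39 members were higher in grafts and 0 were lower at an adjusted p under 0.05, where 2.16% of all genes were called higher and 0.693% lower. The median difference of the members was 2.79, against -0.02 over all genes tested. For 34 members every graft lay above both biopsies, as it did for 8.15% of all genes, and for 0 members every graft lay below, as it did for 7.37%. By subset, 5 of 7 recruited, 3 of 13 mature and 17 of 19 shared members were called. The 2 biopsies, which differ in diabetes, stand for all non-transplanted tissue in this limma fit. Without the Diabetic array, which leaves 1 biopsy, most calls were lost, among the members and among all genes. The differences of Ctss, Lyz1 and Lyz2 were then 2.98, 2.65 and 3.33. With the grafts of days 7 and 10 alone 13 members were called higher, where 81 of 18193 genes were. The fit of all grafts as 1 group counts changes over the days as error. With each day as a group of its own, 11 more members passed the threshold. In that fit 1009 of 18193 genes were called higher and 471 lower. For Fcgr1, C5ar1, Msr1 and Marco both biopsies lay below the array medians, and for 9 members the Diabetic biopsy did, so for these the size of the difference depends on a low value. Hair follicle keratin markers had a median difference of -2.74 over 10 genes in the same comparison, none of them called.

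**Figure D1:**
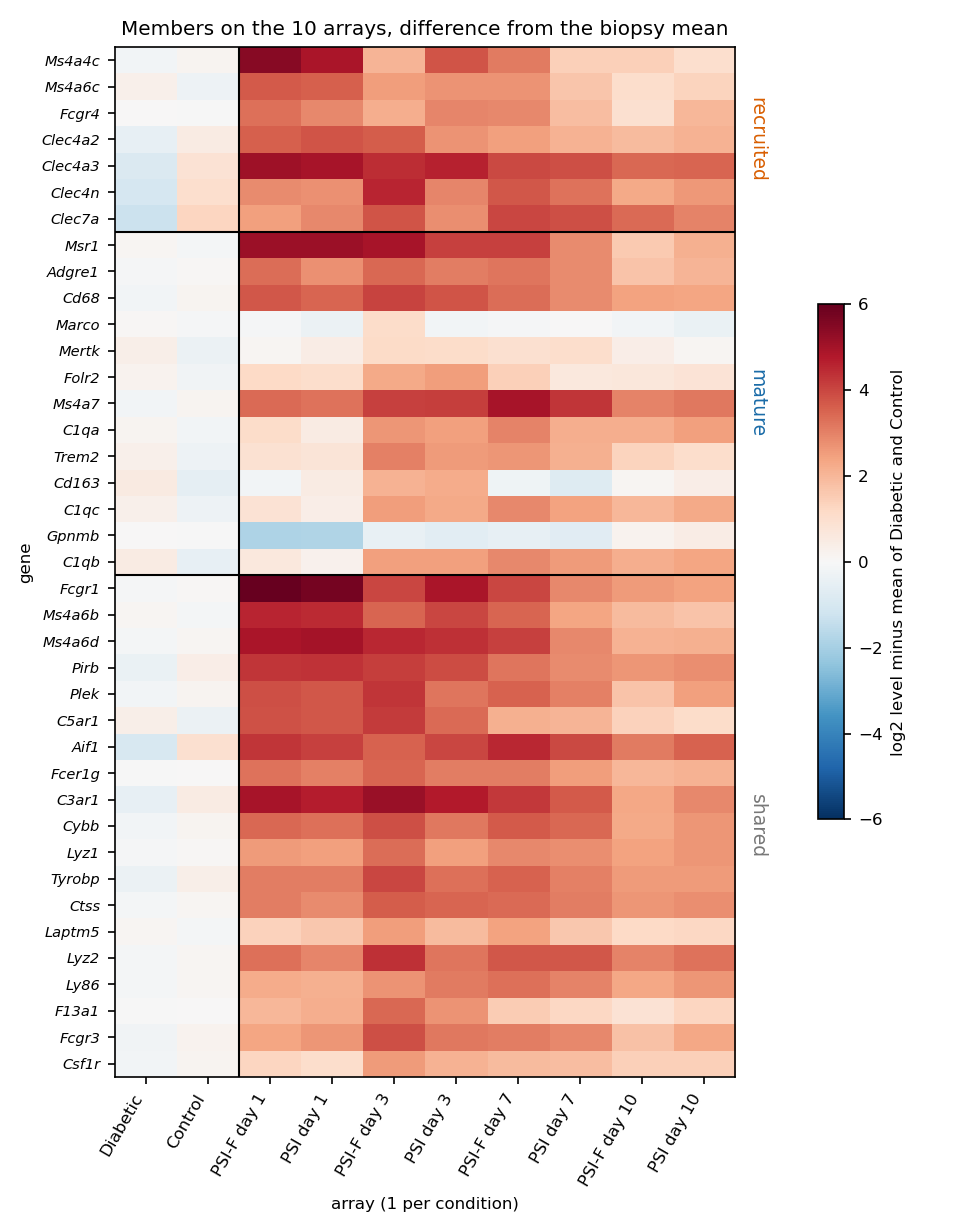
Level of the 39 measured members on each of the 10 arrays as the log2 difference from the mean of the Diabetic and Control biopsies (colour), with genes in rows by subset and arrays in columns. Within a subset, genes run from those with relatively more on day 1 at the top to those with more on a later day at the bottom; Gpnmb on day 1 is the clearest block below the biopsies.

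Of the receptors for antibody and complement fragments, 4 of 5 were called, where 2.16% of all genes were called higher. Fcgr1, the high affinity IgG receptor, had 8.80, 6.51, 6.55 and 5.08 in PSI-F grafts of days 1, 3, 7 and 10 and 8.25, 7.40, 5.39 and 4.93 in PSI grafts of the same days, against 2.44 in the Diabetic and 2.60 in the Control biopsy. Every graft lay above the biopsies, the day 1 grafts highest, and the difference was 4.09 ± 0.92 (SE, adjusted p = 0.0465 by limma). Both biopsy values lay below the array medians, so the size of this difference is set against a low level, and without the Diabetic array the difference was 4.01 (adjusted p = 0.243). A second, dimmer probe set of Fcgr1 was 1.71 higher in grafts. C3ar1, the receptor for the complement fragment C3a, had 8.31, 8.56, 7.62 and 5.67 in PSI-F grafts and 8.07, 8.13, 7.03 and 6.23 in PSI grafts on those days, against 2.87 and 3.86 in the Diabetic and Control biopsies. Its difference was also 4.09, with an SE of 0.68 (adjusted p = 0.0161), and its lowest levels in grafts were those of day 10. Fcgr3, a low affinity IgG receptor, was 2.76 higher in grafts (adjusted p = 0.012). The recruited member Fcgr4, another IgG receptor, had 6.14, 5.01, 5.69 and 3.77 in PSI-F grafts and 5.68, 5.73, 4.66 and 4.79 in PSI grafts, against 2.85 and 2.78 in the Diabetic and Control biopsies. It was 2.37 ± 0.49 higher in grafts (adjusted p = 0.036), with the smallest gap to the biopsies in PSI-F grafts of day 10. C5ar1, the receptor for C5a, lay above the biopsies in all grafts but missed the threshold, with a difference of 2.72 and an adjusted p of 0.095.

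The adaptor and signalling members moved by similar amounts. Tyrobp (DAP12), which passes on signals of many myeloid receptors, had a lowest, median and highest level of 7.98, 8.53 and 9.44 in grafts, against 5.08 in the Diabetic and 5.81 in the Control biopsy. Fcer1g, the signalling chain of the Fc receptors, had 6.83, 7.88 and 8.34 in grafts, against 4.83 and 4.85 in the Diabetic and Control biopsies. The grafts did not overlap the biopsies for either gene, with differences of 3.13 (adjusted p = 0.00317) and 2.82 (adjusted p = 0.00594). Pirb, an inhibitory receptor, was 3.52 higher (adjusted p = 0.0076), and Plek, the protein kinase C substrate pleckstrin, 3.23 higher (adjusted p = 0.0149). Csf1r, the receptor on which macrophage survival depends, rose less, by 1.70 ± 0.33 (adjusted p = 0.0268), as did the lysosomal membrane protein Laptm5, by 1.73 (adjusted p = 0.0256). In the biopsies Csf1r stood at 7.47 in the Diabetic and 7.81 in the Control mouse.

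Genes of the lysosome and of microbial killing gave the smallest adjusted p-values. Ctss, the protease cathepsin S, had 10.03, 10.45 and 11.01 as lowest, median and highest level in grafts, against 7.25 and 7.52 in the Diabetic and Control biopsies. Its 8 grafts spread over less than 1 log2 unit, and the difference was 3.12 ± 0.25 (adjusted p = 0.0011). Lyz2, lysozyme of macrophages and neutrophils, was 3.44 higher (adjusted p = 0.00157), and Cybb, the catalytic subunit of the phagocyte NADPH oxidase, 3.23 higher (adjusted p = 0.00317). Lyz1 was 2.70 higher (adjusted p = 0.0011), but the probe set used for it can cross-react and followed Lyz2, a neighbouring near copy, while a probe set specific to Lyz1 stayed between 1.12 and 1.60 on all arrays, so its call is uncertain. The mature member Cd68, a lysosomal glycoprotein, had 7.92, 8.23, 7.53 and 6.59 in PSI-F grafts and 7.68, 7.97, 7.04 and 6.55 in PSI grafts of days 1, 3, 7 and 10, against 4.01 in the Diabetic and 4.39 in the Control biopsy. All grafts were well above the biopsies, day 10 least, and the difference was 3.24 ± 0.42 (adjusted p = 0.00599).

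Among the C-type lectins, receptors for sugars of microbes and cells, all 4 measured genes were called, where 2.16% of all genes were called higher. Clec4a3 was 4.23 ± 0.51 higher in grafts (adjusted p = 0.00501). It had 7.57, 6.89, 6.43 and 5.93 in PSI-F grafts and 7.44, 7.12, 6.34 and 5.99 in PSI grafts on days 1, 3, 7 and 10, against 1.60 in the Diabetic and 3.37 in the Control biopsy. The scaffolds were close to each other on every day. The Diabetic value lay below the median of its array, and without that array the difference of Clec4a3 was 3.34 (adjusted p = 0.0897). Clec4a2, an inhibitory lectin, had 6.35, 6.36, 5.21 and 4.66 in PSI-F grafts and 6.54, 5.45, 4.85 and 4.82 in PSI grafts, against 2.24 and 3.26 in the Diabetic and Control biopsies, a difference of 2.78 (adjusted p = 0.0252). A second, dimmer probe set of Clec4a2 was 0.56 higher in grafts. Clec4n (Dectin-2), which binds fungal mannans, had 6.78, 8.55, 7.69 and 6.25 in PSI-F grafts and 6.68, 6.90, 7.22 and 6.58 in PSI grafts, against 2.96 and 4.96 in the Diabetic and Control biopsies, a difference of 3.12 (adjusted p = 0.0235). Clec7a (Dectin-1), which binds beta-glucans, was highest on day 7 with either scaffold. It had 6.21, 7.50, 7.76 and 7.14 in PSI-F grafts and 6.64, 6.53, 7.59 and 6.73 in PSI grafts, against 2.45 in the Diabetic and 5.03 in the Control biopsy, a difference of 3.27 ± 0.57 (adjusted p = 0.0184).

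The MS4A membrane proteins lie in a gene cluster and several mark myeloid cells. Ms4a7, a mature macrophage member, had 7.12, 7.82, 8.65 and 6.68 in PSI-F grafts and 7.00, 7.88, 8.02 and 6.88 in PSI grafts of days 1, 3, 7 and 10, against 3.57 in the Diabetic and 3.87 in the Control biopsy. It was the mature member with the greatest difference, 3.79 ± 0.44 (adjusted p = 0.00453), and was highest on day 7 with either scaffold. Ms4a6d was 3.75 higher (adjusted p = 0.0339) and Ms4a6b 3.25 higher (adjusted p = 0.0439). The recruited members Ms4a6c and Ms4a4c lay above the biopsies in every graft, but their spread over the days was wide, and differences of 2.40 (adjusted p = 0.0799) and 2.90 (adjusted p = 0.183) were not called.

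Of the remaining markers, Adgre1, an adhesion receptor widely used to stain mouse macrophages, had 7.48, 7.56, 7.35 and 5.85 in PSI-F grafts and 6.87, 7.23, 6.96 and 6.16 in PSI grafts, against 4.05 in the Diabetic and 4.22 in the Control biopsy, a difference of 2.79 (adjusted p = 0.00935). Aif1 (Iba1), a calcium-binding protein of macrophages, was 3.89 higher (adjusted p = 0.00392) and Ly86 (MD-1), partner of the receptor RP105, 2.68 higher (adjusted p = 0.00317). The Diabetic value of Aif1, 1.52, lay below the median of its array, and without that array the difference of Aif1 was 2.94. F13a1, the A chain of coagulation factor XIII that monocytes and some resident macrophages make, was above the biopsies in every graft, with a difference of 1.91 that missed the threshold (adjusted p = 0.0991).

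The members not called were mostly receptors and products of mature macrophages. Msr1, a scavenger receptor for modified lipoproteins, was 3.74 higher, with an adjusted p of 0.0553. The C1q chains C1qa, C1qb and C1qc were 2.07, 1.99 and 1.95 higher (adjusted p = 0.0764, 0.131 and 0.1), and Trem2, a receptor for lipids and debris, 1.80 higher (adjusted p = 0.131). Folr2, the folate receptor of resident macrophages, was 1.32 higher (adjusted p = 0.163), and Mertk, a kinase receptor for the uptake of apoptotic cells, 0.67 higher (adjusted p = 0.301). For Msr1, C1qa, C1qc, Trem2 and Folr2 every graft lay above both biopsies, as it did for 8.15% of all genes. For C1qc the lowest graft, at 5.37, was close to the Diabetic biopsy at 5.30, and a second, dimmer probe set of Trem2 differed by -0.04 between grafts and biopsies. A missed threshold does not show an unchanged level, as the spread of the members over the days counts as error in this fit. C1qb, Mertk, Cd163, Gpnmb and Marco overlapped the biopsies. Cd163, the receptor for haemoglobin-haptoglobin complexes, was 0.51 higher (adjusted p = 0.792), and its difference was 1.07 without the Diabetic array and turned to -0.054 without the Control array. Gpnmb, a lysosomal glycoprotein of lipid-laden macrophages that melanocytes also express, gave -0.65 (adjusted p = 0.587). Marco, a scavenger receptor, was near background, at 1.47 to 2.96 in grafts and 1.94 and 1.77 in the Diabetic and Control biopsies.

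**Figure D2:**
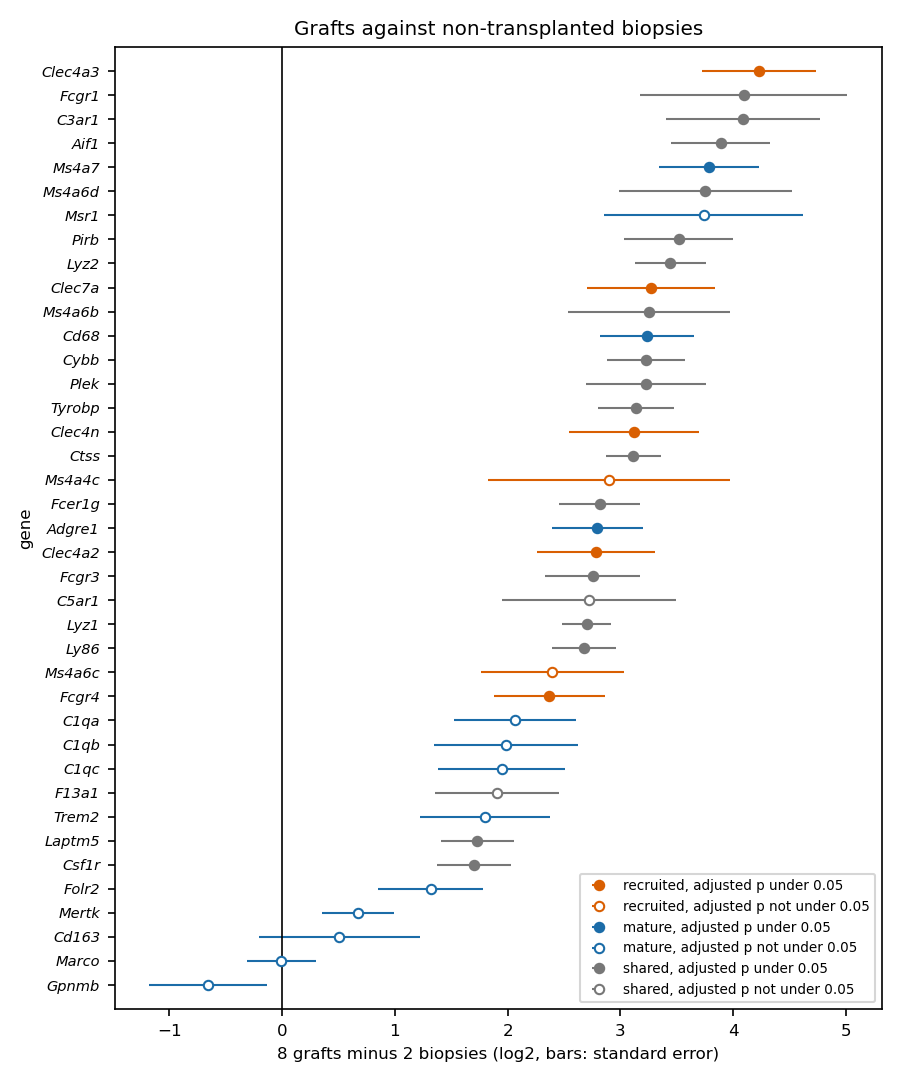
Difference between the 8 grafts and the 2 biopsies for each measured member (log2, horizontal axis; bars are standard errors of the limma fit), coloured by subset, with filled points where the adjusted p was under 0.05. The called members run from Csf1r at 1.70 to Clec4a3 at 4.23, and most open points are mature members.

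The subset medians lay furthest apart on day 1. The median difference from the biopsy mean of the 7 recruited members was 3.60, 3.26, 2.62 and 2.0 on days 1, 3, 7 and 10, highest at the first sampling. That of the 13 mature members was 0.70, 2.49, 2.52 and 1.81, and that of the 19 shared members 3.20, 3.54, 3.14 and 2.37. On day 1 the recruited median exceeded the mature median by 2.69 in PSI-F and by 3.10 in PSI grafts. The same difference was -0.68 in the Diabetic and 0.68 in the Control biopsy, so the size of each gap depends on the biopsy taken as reference. On day 3 the gap was 1.11 in PSI-F and 0.43 in PSI grafts, and on days 7 and 10 it lay between -0.07 and 0.32. Of the recruited members, 5 of 7 had their highest mean level on day 1, whereas 1 of 13 mature members, Msr1, did. The mature members were highest on day 3 in 7 cases, on day 7 in 4 and on day 10 in 1. Single members departed from these medians, with the recruited Clec4n highest on day 3 and Clec7a on day 7. The mature members Msr1, Cd68, Ms4a7 and Adgre1 were far above the biopsies already on day 1. Their mean levels were 7.53, 7.80, 7.06 and 7.17 on that day, against biopsy means of 2.40, 4.20, 3.72 and 4.14. The remaining mature members lay nearer to the biopsies on day 1, Gpnmb below them. A separate list of 6 further monocyte markers, described below, had a median difference of 0.42 from day 1 to day 3, against -0.54 for the recruited members. The highest median on day 1 is thus that of the 7 chosen members. Subset medians have no test here, and the all-gene median ranged from -0.04 to 0.01 over the arrays.

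**Figure D3:**
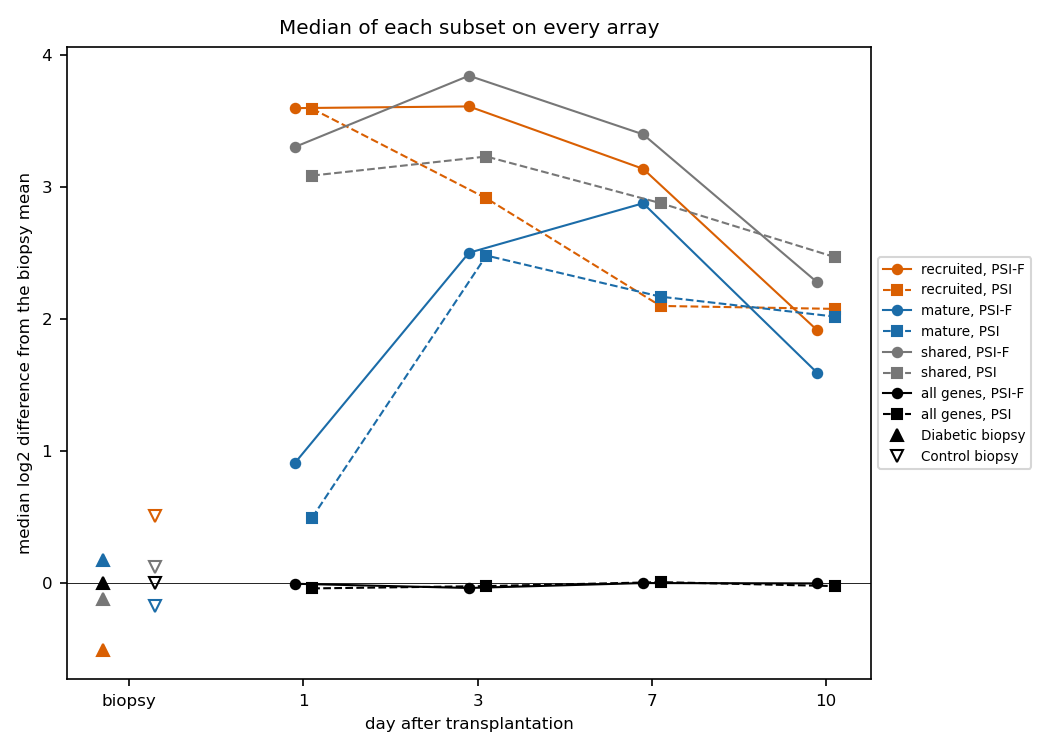
Median log2 difference from the biopsy mean of the recruited, mature and shared members and of all genes, on each graft array by day (PSI-F solid lines and circles, PSI dashed lines and squares) and on the Diabetic and Control biopsies (triangles). The mature median was 0.91 in PSI-F and 0.50 in PSI grafts on day 1, where the recruited median was 3.60 and 3.59. On days 7 and 10 the recruited median minus the mature median lay between -0.07 and 0.32 with the probe sets used here.

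Over the 4 days, 25 of 39 members changed in a moderated F-test with the scaffold as covariate, where 5.94% of all genes did. These were 12 of 13 mature members (all but Marco), 4 of 7 recruited members (Clec4a3, Clec4a2, Ms4a6c and Ms4a4c) and 9 of 19 shared members. Without the PSI-F or the PSI array of day 1, which leaves 1 array on that day, 3 members were called. Without the PSI-F array of day 7 or of day 10 the count was 16 and 9.

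The promoters below show sequence upstream of genes that were highest on day 1 (Fcgr1 and Ms4a4c) or on a later day (C1qb, Trem2 and Gpnmb). PU.1, the product of Spi1, is a transcription factor that myeloid cells require and that binds purine-rich sites with a GGAA core. The 250 bases before the gene start, from RefSeq on GRCm38.p6, are given in the direction of the gene, with GAGGAA or AGGAAGT on either strand in capitals. The regions are chr3:96293970-96294219 on the minus strand, chr19:11407411-11407660 on the plus strand, chr4:136886201-136886450 on the minus strand, chr17:48346151-48346400 on the plus strand and chr6:49036268-49036517 on the plus strand.
Fcgr1: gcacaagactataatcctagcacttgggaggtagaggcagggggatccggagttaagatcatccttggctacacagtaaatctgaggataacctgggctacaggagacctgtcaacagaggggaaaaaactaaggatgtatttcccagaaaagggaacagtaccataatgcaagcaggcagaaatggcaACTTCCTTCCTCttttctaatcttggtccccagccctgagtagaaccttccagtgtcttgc
Ms4a4c: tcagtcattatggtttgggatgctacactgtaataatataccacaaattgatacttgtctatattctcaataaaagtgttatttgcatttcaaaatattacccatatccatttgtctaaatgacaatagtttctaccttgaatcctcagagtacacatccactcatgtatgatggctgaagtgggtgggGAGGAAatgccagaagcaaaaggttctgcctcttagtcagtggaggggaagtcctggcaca
C1qb: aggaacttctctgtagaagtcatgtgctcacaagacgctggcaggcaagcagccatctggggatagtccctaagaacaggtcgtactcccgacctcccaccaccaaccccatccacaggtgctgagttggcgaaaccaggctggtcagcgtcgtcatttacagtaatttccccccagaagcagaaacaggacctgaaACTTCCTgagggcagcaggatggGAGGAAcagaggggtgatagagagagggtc
Trem2: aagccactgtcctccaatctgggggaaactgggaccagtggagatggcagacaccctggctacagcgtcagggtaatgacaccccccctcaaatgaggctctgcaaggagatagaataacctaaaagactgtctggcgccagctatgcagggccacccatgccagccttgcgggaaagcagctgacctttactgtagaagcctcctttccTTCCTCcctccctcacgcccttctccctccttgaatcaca
Gpnmb: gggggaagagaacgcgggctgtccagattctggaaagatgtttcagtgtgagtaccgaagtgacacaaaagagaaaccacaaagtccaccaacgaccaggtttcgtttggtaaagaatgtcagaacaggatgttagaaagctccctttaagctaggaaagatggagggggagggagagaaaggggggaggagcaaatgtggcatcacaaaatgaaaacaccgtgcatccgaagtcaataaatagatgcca
The GAGGAA match ended 49 bases before the start in Fcgr1, 55 in Ms4a4c, 24 in C1qb and 34 in Trem2. Fcgr1 and C1qb also held AGGAAGT, 54 and 46 bases before the start, and Gpnmb held neither motif. Lyz1 and Lyz2, not printed, held AGGAAGT but no GAGGAA. Of the 42 members, 34 had a promoter in the table, and GAGGAA occurred in 19 of them (55.9%), against 25.9% of 27025 genes. AGGAAGT occurred in 12 of 34 (35.3%), against 8.80% of all genes. The motifs share the letters AGGAA and can overlap, and a match in this window is not a bound site. By subset, GAGGAA was found in 6 of 8 recruited, 5 of 10 mature and 8 of 16 shared members, with Clec4a1 and Clec12a, which have no expression value here, among the recruited ones.

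From early to late grafts the members called were all lower. Comparing the 4 grafts of days 7 and 10 with the 4 of days 1 and 3, 4 members were lower and 0 higher, where 0.687% of all genes were called lower and 0.176% higher. For 8 members all late grafts lay below all early grafts, as for 6.53% of all genes. C5ar1 had 4.24 and 4.13 in PSI-F and PSI grafts of day 7 and 3.48 and 3.20 on day 10, against 5.92 and 5.85 on day 1 and 6.28 and 5.52 on day 3. The late grafts were thus all lower, by 2.13 ± 0.25 (adjusted p = 0.0108). Pirb had 5.85, 5.47, 5.29 and 5.45 in those late grafts in the same order, against 6.95, 6.96, 6.80 and 6.55 in early grafts. It was 1.30 ± 0.14 lower (adjusted p = 0.0103), again without overlap.

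The other called members were recruited genes, Clec4a2 with a difference of -1.29 (adjusted p = 0.0385) and Clec4a3 with -1.09 (adjusted p = 0.0313), whose values are given above. Several larger differences missed the threshold, among them Ms4a4c at -2.29 (adjusted p = 0.165), Fcgr1 at -2.25 (adjusted p = 0.0713), Msr1 at -2.16 (adjusted p = 0.0715), Ms4a6d at -1.91 (adjusted p = 0.0621) and C3ar1 at -1.63 (adjusted p = 0.0722). No member was called higher in late grafts, and the greatest positive differences were those of Gpnmb, 1.06 (adjusted p = 0.21), and C1qb, 1.03 (adjusted p = 0.345). The count of 4 was 0 without the PSI array of day 1, 9 without the PSI-F array of day 7, and 2 on leaving out the day 1 PSI-F array, the day 7 PSI array or either day 10 array. Neutrophil genes were lower in late grafts as well, S100a8 by a difference of -2.57 (adjusted p = 0.0172), S100a9 by -3.16 (adjusted p = 0.046) and Mmp8 by -2.38 (adjusted p = 0.0242), with a median over the 15 markers of 3.21 to 4.01 in late and 3.87 to 5.59 in early grafts. The hair follicle keratin markers had a median difference of 2.60 between late and early grafts. The part of neutrophils and of hair follicles in the fall of the 4 called members was not tested; C5ar1 and Pirb are also expressed by neutrophils.

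**Figure D4:**
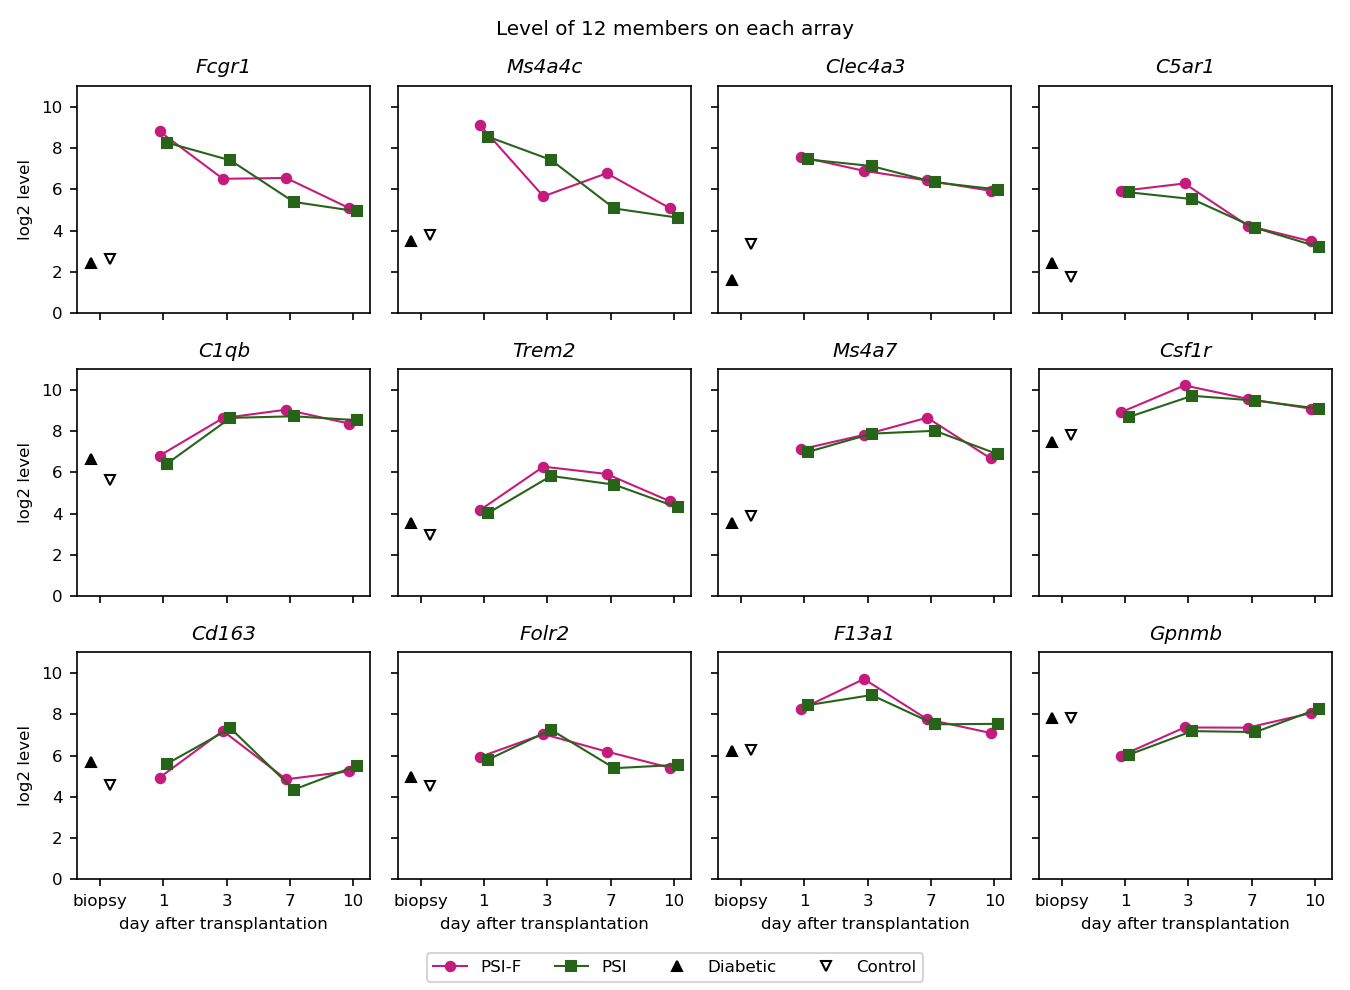
Level (log2) of 12 members on every array, with PSI-F (circles) and PSI (squares) grafts by day and the Diabetic and Control biopsies as triangles at the left of each panel. Fcgr1 and Ms4a4c were highest on day 1, Cd163, Folr2 and F13a1 stood out on day 3, and C1qb, Trem2 and Ms4a7 were higher on days 3 and 7 than on day 1.

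Between day 1 and day 3, 7 members rose and 0 fell, where 0.319% of all genes were called higher and 0.313% lower. Of these, 6 were of the 13 mature members and the seventh was Csf1r, while none of the 7 recruited members was called. C1qb, the B chain of the C1q recognition protein of complement, had 8.63 in PSI-F and 8.64 in PSI grafts on day 3, against 6.81 and 6.43 on day 1. It was 2.01 ± 0.17 higher (adjusted p = 0.0104), and on day 1 lay close to the Diabetic biopsy at 6.67. C1qa and C1qc were 1.76 and 1.78 higher (adjusted p = 0.038 and 0.0226), so the 3 chains of the protein moved by about the same amount. They then stayed high, C1qb with 9.04 in PSI-F and 8.72 in PSI grafts on day 7 and 8.36 and 8.53 on day 10.

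Trem2 had 6.28 in PSI-F and 5.83 in PSI grafts on day 3, against 4.18 and 4.02 on day 1, and was 1.95 ± 0.15 higher (adjusted p = 0.00689). A second probe set of Trem2 stayed between 2.44 and 2.72 on all arrays. Cd163 had 7.19 in PSI-F and 7.33 in PSI grafts on day 3, against 4.93 and 5.61 on day 1, a difference of 1.99 (adjusted p = 0.0264). Csf1r had 10.21 and 9.71 in PSI-F and PSI grafts on day 3, against 8.92 and 8.68 on day 1, a difference of 1.16 (adjusted p = 0.0353). Gpnmb had 7.36 and 7.18 on day 3, against 6.0 and 6.04 on day 1, a difference of 1.25 (adjusted p = 0.0263), and thus returned towards the biopsies at 7.83 and 7.82 in the Diabetic and Control mice. The 6 melanocyte markers had a median of 3.54 in PSI-F and 4.70 in PSI grafts on day 3, against 3.37 and 3.34 on day 1, and 5.27 and 5.18 in the Diabetic and Control biopsies, and their part in the level of Gpnmb was not tested.

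The recruited members had a median difference of -0.54 between these days, with Ms4a4c at -2.28 (adjusted p = 0.251). The 6 further monocyte markers outside the members had a median of 0.42. Ms4a4c had 5.66 in PSI-F and 7.42 in PSI grafts on day 3, against 9.09 and 8.55 on day 1. Fcgr1 had a difference of -1.57 (adjusted p = 0.193). Interferon-stimulated genes, a list added after the values had been seen, moved with these 2 members. Their median over 10 genes was 4.29 in PSI-F and 5.61 in PSI grafts on day 3, against 7.84 and 6.90 on day 1, with Rsad2 lower by a difference of -3.10 (adjusted p = 0.0328), and their part in the levels of Ms4a4c and Fcgr1 was not tested. The 7 calls of day 3 against day 1 rest on 2 arrays a day. None was made without the PSI-F or the PSI array of day 1, 2 without the PSI-F array of day 3, 3 without either array of day 7, 4 without either of day 10, and 3 when the probe sets of a gene were averaged.

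Between day 3 and day 7, 2 members were called lower and 0 higher, where 0.324% of all genes were called lower and 0.154% higher. Cd163 had 4.85 in PSI-F and 4.35 in PSI grafts on day 7, against 7.19 and 7.33 on day 3, and was 2.66 ± 0.25 lower (adjusted p = 0.0224). Its day 7 levels were close to the 4.56 of the Control biopsy and below the 5.68 of the Diabetic biopsy. C5ar1 was the other, with a difference of -1.72 (adjusted p = 0.0255). Folr2 and F13a1, which were also highest on day 3, had differences of -1.35 (adjusted p = 0.0606) and -1.68 (adjusted p = 0.0522). Folr2 had 6.19 in PSI-F and 5.39 in PSI grafts on day 7, against 7.04 and 7.25 on day 3. F13a1 had 7.76 and 7.51 on day 7, against 9.71 and 8.93 on day 3. C1qa, C1qb and C1qc had differences of 0.02, 0.24 and 0.25 between the same days (adjusted p = 0.975, 0.52 and 0.593), and Ms4a7 of 0.49 (adjusted p = 0.281).

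Between day 7 and day 10, 37 of 39 members had a negative difference, with a median of -0.75, against -0.02 over all genes. Only 2 of these were called, Trem2 with -1.21 (adjusted p = 0.023) and Ms4a7 with -1.56 (adjusted p = 0.0254), where 0.533% of all genes were called lower. Hair follicle keratin markers had a median difference of 3.26 between these days, and the part of hair follicles in the members' levels was not tested. Trem2 had 4.60 in PSI-F and 4.31 in PSI grafts on day 10, against 5.92 and 5.41 on day 7. Msr1 and Ms4a6d had differences of -1.61 (adjusted p = 0.0928) and -1.41 (adjusted p = 0.0703). Gpnmb was higher on day 10, by 0.92 ± 0.16 (adjusted p = 0.0425), where 1.44% of all genes were called higher. It had 8.06 in PSI-F and 8.27 in PSI grafts on day 10, against 7.35 and 7.14 on day 7. With Cd163, at 0.78 (adjusted p = 0.19), it was 1 of 2 members with a positive difference between these days. The melanocyte median was 5.34 in PSI-F and 5.30 in PSI grafts on day 10, against 4.20 and 3.76 on day 7. The calls of days 7 and 10 changed with single arrays. The 2 falls from day 3 to 7 were 0 without either array of day 1 or day 7, 1 without the PSI-F array of day 3 or either of day 10, and 4 without the PSI array of day 3. The 2 falls and the rise from day 7 to 10 were lost when any 1 array of days 1, 7 or 10 was left out, and 8 falls were called without either array of day 3.

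No member passed the test between scaffolds with and without fibroblasts. In the comparison of PSI-F with PSI grafts, with the day as a block, 0 of 39 members were called (limma), as were 0.0% of all genes. The smallest adjusted p was 0.751. An unadjusted p under 0.05 was found for 2 of the 39 members and for 1142 of 18193 genes. The median difference of the members was 0.21, against -0.02 over all genes, and 33 members had a positive difference. The greatest were those of Clec4n, 0.47 ± 0.28, Marco, 0.42 ± 0.20, and Msr1, 0.39 ± 0.27. A test of whether the change from early to late grafts differed between scaffolds called 0 members, with a smallest adjusted p of 1.00.

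Within a day each scaffold had 1 array, so the differences there have no replicate check. On day 1 no member differed by 2-fold, as 0.313% of all genes did upwards and 0.819% downwards, and the greatest differences were those of Cd163 (-0.67), Adgre1 (0.61) and C1qa (0.60). On day 3, 4 members were at least 2-fold higher in the PSI-F graft (0.989% of all genes) and 1 was lower (1.87%). Clec4n had 8.55 in the PSI-F and 6.90 in the PSI graft, a difference of 1.66, and Lyz2 and Plek differed by 1.13 and 1.12. Marco differed by 1.25 at levels near background, of 2.96 in the PSI-F and 1.70 in the PSI graft. Ms4a4c went the other way, with 5.66 in the PSI-F and 7.42 in the PSI graft, a difference of -1.76. On the same day the neutrophil marker median was 5.59 in the PSI-F and 3.87 in the PSI graft. All 10 hair follicle keratin markers were at least 2-fold lower in the PSI-F graft (median difference -5.00), as were 4 of 6 melanocyte markers (median -1.33) and the muscle gene Mb, with 9.33 in the PSI-F and 11.10 in the PSI graft. The part of tissue content in these differences was not tested.

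On day 7 nearly all members were higher in the PSI-F graft, 37 of 39, with a median difference of 0.47, against -0.06 over all genes. Of them 7 passed 2-fold, where 0.956% of all genes did, and 0 were 2-fold lower (0.824% of all genes). Ms4a4c had 6.78 in the PSI-F and 5.07 in the PSI graft, a difference of 1.71, the sign opposite to that of day 3. Msr1 differed by 1.26, Ms4a6d by 1.19, Fcgr1 by 1.16, Ms4a6b by 1.11, Fcgr4 by 1.03 and Ms4a6c by 1.02, so that 4 of the 7 were MS4A genes. When the probe sets of a gene were averaged, 2 members passed 2-fold. On the same arrays 9 of 10 hair follicle keratin markers were at least 2-fold higher in the PSI-F graft (median difference 2.40), and their part was not tested. The interferon-stimulated gene median was 6.53 in the PSI-F and 5.24 in the PSI graft of day 7, and as on days 1 and 3 it was higher on the array where Ms4a4c and Fcgr1 were higher; its part in them was not tested. On day 10 the balance was the other way, with 30 of 39 members lower in the PSI-F graft and a median of -0.17. Only Fcgr4 passed 2-fold, with 3.77 in the PSI-F and 4.79 in the PSI graft (-1.02, where 0.346% of all genes were 2-fold lower). No member differed by 4-fold, the threshold of the study, on any day. Of all genes, 0.066% were 4-fold higher and 0.121% 4-fold lower on day 1, 0.159% and 0.566% on day 3, 0.258% and 0.077% on day 7, and 0.066% and 0.0495% on day 10.

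**Figure D5:**
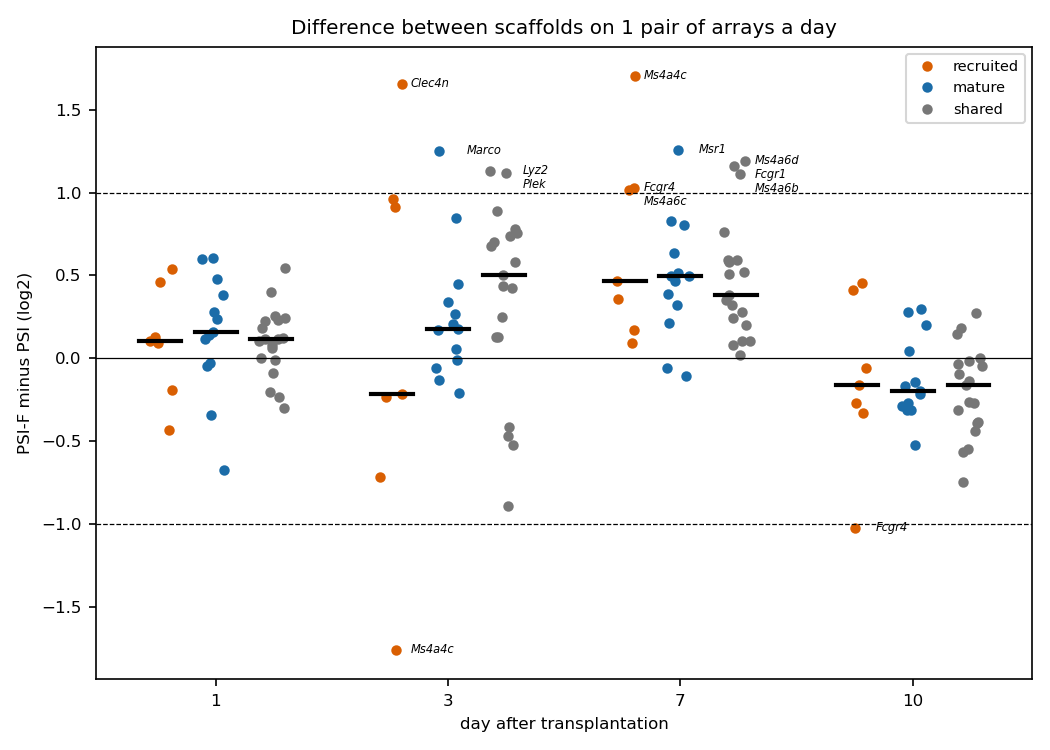
Difference between the PSI-F and the PSI graft of each day (log2, vertical axis) for every measured member, coloured by subset, with black bars for subset medians and dashed lines at 2-fold. Points lie near 0 on day 1, spread most on day 3, are nearly all above 0 on day 7 (37 of 39) and mostly below 0 on day 10 (30 of 39); members past 2-fold are named.

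The biopsies of the Diabetic and the Control mouse were compared on 1 array each, without a test. Of 39 members, 5 were at least 2-fold lower in the Diabetic biopsy and 2 higher, where 6.89% of all genes were lower and 4.12% higher by that measure. The 4 measured lectins were all among the lower ones, Clec7a by a difference of -2.58, with 2.45 in the Diabetic and 5.03 in the Control biopsy, Clec4n by -1.99, Clec4a3 by -1.77 and Clec4a2 by -1.02. Clec7a was the only member past 4-fold, where 0.824% of all genes were 4-fold lower and 0.473% higher. The fifth was Aif1, with 1.52 in the Diabetic and 3.42 in the Control biopsy. Cd163 and C1qb were higher, by 1.12 and 1.03, with 5.68 and 6.67 in the Diabetic and 4.56 and 5.64 in the Control biopsy. The Diabetic values of Clec7a, Clec4a3, Clec4a2 and Aif1 lay below the median of that array, so the sizes of these differences are set against low levels. Other tissue genes were lower in the Diabetic biopsy as well, 5 of 7 keratinocyte markers (median difference -1.23), 5 of 10 hair follicle keratin markers (median -0.87) and 2 of 8 dendritic and Langerhans cell markers by at least 2-fold, Cd207 with 3.74 in the Diabetic and 5.93 in the Control biopsy. Actb had 8.78 in the Diabetic and 10.39 in the Control biopsy. The part of tissue content and RNA in the lectin differences was not tested, and mouse and diabetes cannot be told apart. For the 4 lectins every graft lay above the higher of the biopsies, that of the Control mouse.

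Growth factors and regulators of this lineage were examined as lists, in a comparison of grafts with biopsies where 2.16% of all genes were called higher. Of 8 colony-stimulating factors and receptors, 2 were higher in grafts, the GM-CSF receptor chains Csf2ra by 1.63 (adjusted p = 0.0175) and Csf2rb by 2.47 (adjusted p = 0.0322). Csf1, the ligand of Csf1r, had a lowest level of 5.69 in grafts, against 4.90 and 5.22 in the Diabetic and Control biopsies, and a difference of 1.20 that just missed the threshold (adjusted p = 0.053). Il34, the other ligand of Csf1r, had a difference of 0.16 (adjusted p = 0.818). Of 11 myeloid transcription factors, 2 were higher in grafts, Spi1 (PU.1) by 1.90 (adjusted p = 0.0102) and Irf8 by 2.26 (adjusted p = 0.00413), both needed for monocyte development, while the median over the list was 0.04. Cebpa and Cebpb, which keratinocytes and fat cells also express, had differences of -0.20 and -0.21 (adjusted p = 0.64 and 0.717).

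Of 6 further monocyte markers, Ccr2, the receptor that draws monocytes out of the bone marrow, was 1.85 higher in grafts (adjusted p = 0.0239) and Cd300a, an inhibitory receptor, 2.02 higher (adjusted p = 0.0073). Of all genes, 2.16% were called higher in grafts and 0.687% lower in late than in early grafts. Ccr2 had 5.16, 5.99, 5.20 and 4.46 in PSI-F grafts and 5.52, 5.98, 4.94 and 4.99 in PSI grafts of days 1, 3, 7 and 10, against 3.38 and 3.48 in the Diabetic and Control biopsies. Cx3cr1, the fractalkine receptor of patrolling monocytes, stayed at 1.55 to 2.57 in grafts. Itgam (CD11b), which neutrophils share, was lower in late grafts, with 2.81 and 2.77 in PSI-F and PSI grafts of day 7 and 1.62 and 2.38 on day 10, against 5.30 and 5.47 on day 1 and 5.58 and 4.54 on day 3 (-2.83, adjusted p = 0.00882).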

How the data were processed

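RNA of 8 grafts and 2 biopsies was hybridised to Affymetrix mouse genome arrays. The values deposited by the authors are log2 expression values of 45101 probe sets, which per the submitters' processing notes were made with RMA in R 2.15.0 (affy 1.36.0). Array medians near the 2.82 to 2.94 seen here are low for RMA values, and the background step could not be checked from the deposited log2 values. Low levels, and differences from them, depend on that step. The values were used as deposited, without further normalization. The tests did not include the 64 control probe sets. Each gene was represented by its probe set of a single symbol with the highest mean (18193 genes; 20 members had several probe sets). Groups were taken from the labels.

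Tests were made with limma 3.58.1 (R 4.3.3) on all 45037 probe sets, with Benjamini-Hochberg adjustment and a threshold of 0.05: grafts against biopsies, late against early grafts, PSI-F against PSI with the day as a block, and the days with the scaffold as covariate. Comparisons with 1 array a group have no test and used a 2-fold threshold. Arrays of a condition have no replicate, so the spread is that between conditions and p-values measure only this. The comparisons over days share arrays. Scripts were tested on simulated data. Alternatives were the mean of all probe sets, cyclic loess, a filter on dim probe sets, an intensity trend, other groupings of the arrays and leaving out each array. Members, subsets and lists were chosen with earlier results of these data known, and the interferon-stimulated gene list after its values were seen. Named are all members. Values on all arrays are given for the recruited and mature members called between grafts and biopsies or between late and early grafts. Of the other members with great differences, only some have values on all arrays here. Of the other lists only some of the called genes are named, with a few more. Sequences are from RefSeq (GRCm38.p6). Depth does not apply to arrays, and the number of arrays limits the precision.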

Additional observations from a re-analysis of the deposited data

Results flagged for a closer look

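A single array stood apart from the others of its group for 9 of 195 sets of values tested for it (Dixon's test at 95%), and chance flags about 1 in 20 such groups. The PSI-F day 3 array was highest for Marco, at 2.96 both among the 8 grafts and among the 4 PSI-F grafts, near background, for Lyz1 among early grafts (12.21), for Clec4n among early grafts (8.55) and for Cd163 among PSI-F grafts (7.19). Adgre1 was lowest in the PSI-F graft of day 10 among PSI-F grafts, at 5.85, against 7.35 for the next. The PSI graft of day 1 was lowest among PSI grafts for C1qa (6.45), C1qb (6.43) and C1qc (5.37), the 3 chains of 1 protein, which lie next to each other in the genome. Days differ within these sets, so an array that stands apart can be a day that does.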

How the results depend on the processing

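The count of members higher in grafts than in biopsies, 25, was 13 with the grafts of days 7 and 10 alone and 3 to 27 when single arrays were left out. Over all 18193 genes, 393 were called higher in the main fit and 81 with the grafts of days 7 and 10 alone. With each day as a group of its own, 11 more members passed the threshold between grafts and biopsies. The difference of Cd163 in that comparison turned to -0.13 with days 7 and 10 alone and lay between -0.054 (without the Control array) and 1.07 (without the Diabetic array) when single arrays were left out. Of 4 members lower in late grafts, 2 were called with cyclic loess, 2 with the scaffold as a block, 0 with PSI arrays alone and 0 with PSI-F arrays alone, and 0 to 9 when an array was left out. The 7 members higher on day 3 than on day 1 were 3 with the mean of all probe sets, and 0 to 10 when an array was left out. The 2 falls from day 3 to day 7 were 0 with the mean of probe sets, 1 with the filter on dim probe sets, 6 with an intensity trend, 4 with no scaffold term, and 0 to 4 on leaving out an array. From day 7 to day 10 the 1 rise was 0 with the mean of probe sets and 0 with cyclic loess (0 to 1 on leaving out an array), and the 2 falls were 1 with the mean of probe sets and 7 with an intensity trend (0 to 8). The 25 changes over the days were 3 to 32 on leaving out an array. At 4-fold in place of 2-fold, the counts of PSI-F against PSI were 0 higher and 0 lower on day 3, 0 higher on day 7 and 0 lower on day 10, and of Diabetic against Control 0 higher and 1 lower. With the mean of all probe sets, 2 members passed 2-fold on day 7. The recruited median on day 1 was 3.06 with that mean and 3.61 with cyclic loess, and the mature median 2.29 and 2.54 on day 3 and 0.86 with that mean on day 10. The count of PSI-F against PSI was 0 under every alternative run. Of 967 alternatives for 61 values of single members, 762 kept direction and side of the threshold, 173 lost the call, 30 gained it and 2 changed sign. The mean of all probe sets includes dim ones that hardly moved; the other causes were not tested. The labels give no replicate numbers, so the day or the scaffold served as the block, and without the day block PSI-F against PSI also gave 0 calls. With 1 array a condition, the spread among mice was not measured.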

Other observations

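Of 10 further macrophage genes measured outside the members, 1 was called higher against the biopsies, where 2.16% of all genes were. In late against early grafts 2 were called, 1 higher (0.176% of all genes) and 1 lower (0.687%). Lyve1 was called lower in day 7 against day 3 (0.324% of all genes). None was called in day 3 against day 1 or day 10 against day 7. Gas6, a bridging ligand for the uptake of apoptotic cells, was 1.13 higher in grafts than in biopsies (adjusted p = 0.00935 by limma). Mrc1, the mannose receptor CD206, had 7.00, 8.90, 7.62 and 6.97 in PSI-F grafts and 7.56, 8.53, 7.48 and 7.42 in PSI grafts of days 1, 3, 7 and 10, against 5.87 in the Diabetic and 5.63 in the Control biopsy. Every graft lay above the biopsies and day 3 was highest, with a difference from the biopsies of 1.94 (adjusted p = 0.0501). Lyve1, a hyaluronan receptor of perivascular macrophages and of lymphatic vessels, had 3.23 and 3.28 in PSI-F and PSI grafts of day 7 and 3.45 and 3.77 on day 10, against 4.82 and 4.64 on day 1 and 5.63 and 5.18 on day 3. It was lower in late than in early grafts, by a difference of -1.64 (adjusted p = 0.0177).

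Itgax (CD11c), an integrin chain of dendritic cells and some macrophages, was the other gene called. It had 5.98 and 6.05 in PSI-F and PSI grafts of day 7 and 6.09 and 6.05 on day 10, against 5.0 and 4.64 on day 1 and 5.17 and 4.65 on day 3, and was 1.17 higher in late grafts (adjusted p = 0.0103). The dendritic and Langerhans cell markers measured with it had no member called in late against early grafts. Vsig4 and Timd4, markers of resident macrophages in other organs, were near background, at 1.39 to 3.15 and 1.33 to 2.25 in grafts.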
